A study of Komagataella pastoris with 6 samples.

Results

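Histone genes and the genes that modify, assemble or remodel chromatin were followed in *Komagataella pastoris* (*Pichia pastoris*), a yeast that can grow on methanol. A gene was included when its product description named a histone, chromatin, the nucleosome, SWI/SNF, RSC, SAGA, NuA4, silencing or COMPASS, and when the description did not also point to splicing, tRNA, DNA repair or DNA replication. This gave 80 of the 5030 genes in the deposited table, and the second condition removed 0 genes. Of the 80 genes, 5 encode histone proteins and 75 encode modifiers, remodellers, assembly factors and other partners.

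Messenger RNA was measured in 3 libraries of the ILV3 strain, labelled HTX33_ILV3 and engineered to overexpress Ilv3, and in 3 libraries of the control strain HTX-33, whose genotype is labelled WT. The series design calls the 3 libraries of each strain biological replicates. All 6 cultures grew in basal salt medium with 0.5% methanol and were harvested in exponential phase. The treatment of both strains is labelled methanol induction. The labels give neither the promoter that drives ILV3 nor the number of clones behind the ILV3 strain. The overexpressed gene checked the labels: ILV3 (PAS_chr1-4_0458), the dihydroxyacid dehydratase of branched-chain amino acid synthesis, was at 2564, 2680 and 2633 TPM in the ILV3 libraries and at 88.0, 79.8 and 91.9 TPM in the HTX-33 libraries.

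In a nucleosome, DNA is wrapped around a core made of the histones H2A, H2B, H3 and H4. Acetyltransferases such as SAGA and NuA4 add acetyl groups to histone tails, deacetylases remove them, and methyltransferases such as COMPASS mark particular lysines. Remodellers such as SWI/SNF, RSC and ISWI use ATP to slide, evict or space nucleosomes, and the SWR1 complex exchanges H2A for the variant H2AZ. In growing yeast cells, transcription of the core histone genes rises in S phase, when new DNA is packaged.

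Levels are given in TPM, a share of each library scaled by transcript length and not an amount per cell. The deposited values are named FPKM, but each library sums to 1000000, and they were therefore treated as TPM; the files do not show whether length was taken into account, which touches every comparison of levels between genes. Read numbers per library are unknown, and counting error therefore has no interval here. A log2 fold change below is ILV3 strain over HTX-33 for log2(TPM + 1), a scale that compresses differences of low genes. Genes count as called where limma, fitted and adjusted across all 5025 tested genes, gave an adjusted p below 0.05. All 80 genes passed the filter on low values, a mean of at least 1 TPM.

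Histone transcripts were among the most abundant of the cell, and the strains overlapped in their total. The 4 core histone genes together reached 27939, 24672 and 25909 TPM in the ILV3 libraries, against 25609, 27984 and 24949 TPM in the HTX-33 libraries. The means were 26173 ± 1650 TPM in the ILV3 strain and 26181 ± 1596 TPM in HTX-33 (SD, n = 3 each), a difference of -7.78 TPM that is smaller than either SD. This total hides opposite terms, with means of H4 and H2B higher and of H2A and H3 lower in the ILV3 strain. H4, the largest term, was also the most variable. Its means were 14060 ± 1776 TPM in the ILV3 strain and 13346 ± 1923 TPM in HTX-33. By mean level over the 6 libraries, H4 ranked 3rd, H3 17th, H2A 36th, H2B 39th and H2AZ 64th of the 5025 tested genes. Of the 5 histone genes, 2 were called, H2AZ higher and H2A lower. Over all tested genes 49.3% were called, 22.1% higher and 27.2% lower.

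The variant H2AZ (PAS_chr4_0157), which in budding yeast is enriched at nucleosomes next to promoters, was at 2782, 2587 and 2645 TPM in the ILV3 libraries and at 2216, 2398 and 2129 TPM in the HTX-33 libraries. Every ILV3 library lay above every HTX-33 library. Its mean was 2671 ± 99.98 TPM in the ILV3 strain and 2248 ± 137 TPM in HTX-33 (SD, n = 3 each), a log2 fold change of 0.25 (SE 0.05, adjusted p = 0.00432). Its call held in each of the 15 alternative settings, with adjusted p between 0.00122 and 0.0212. In the authors' deposited table the log2 fold change of H2AZ is 0.33, with a p-value of 1.3e-06.

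H2A (PAS_chr2-1_0429), the core histone that H2AZ replaces, moved the other way. It was at 3275, 2896 and 3169 TPM in the ILV3 libraries and at 3756, 3496 and 3595 TPM in the HTX-33 libraries. Again the strains did not overlap. Its change of -0.22 on the log2 scale (SE 0.06, adjusted p = 0.0101) was a fall, and the call held in each of the 15 alternatives, with adjusted p between 0.00373 and 0.0415. In the authors' deposited table the log2 fold change of H2A is -0.12, with a p-value of 0.0544. As a share of the H2A and H2AZ transcripts together, H2AZ made up 45.9%, 47.2% and 45.5% in the ILV3 libraries and 37.1%, 40.7% and 37.2% in the HTX-33 libraries. The share was higher in every ILV3 library than in any HTX-33 library. It was not tested, and 3 libraries against 3 cannot give an exact permutation p below 0.1.

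H2B, H3 and H4 did not pass the test. H2B (PAS_chr2-1_0428), the partner of H2A in the histone dimer, was at 2901, 3226 and 3339 TPM in the ILV3 libraries and at 3277, 2994 and 3149 TPM in the HTX-33 libraries. The strains overlapped, and the log2 fold change was 0.01 with a 95% interval of -0.13 to 0.14 (adjusted p = 0.952). H3 (PAS_chr2-2_0199), the histone whose lysines COMPASS methylates, was at 5671, 5745 and 6117 TPM in the ILV3 libraries and at 6299, 5929 and 6009.5 TPM in the HTX-33 libraries. Its log2 fold change was -0.06 with a 95% interval of -0.17 to 0.05 (adjusted p = 0.362). H4 (PAS_chr2-2_0200), which pairs with H3, was at 16092, 12804 and 13284 TPM in the ILV3 libraries and at 12277, 15566 and 12195 TPM in the HTX-33 libraries. One library of each strain, ILV3 replicate 1 and HTX-33 replicate 2, was high for H4, and the other 4 lay between 12195 and 13284 TPM. The log2 fold change of H4 was 0.08 with a 95% interval of -0.18 to 0.33 (adjusted p = 0.598), and its sign turned with quantile normalization (-0.0849).

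**Figure D1:**
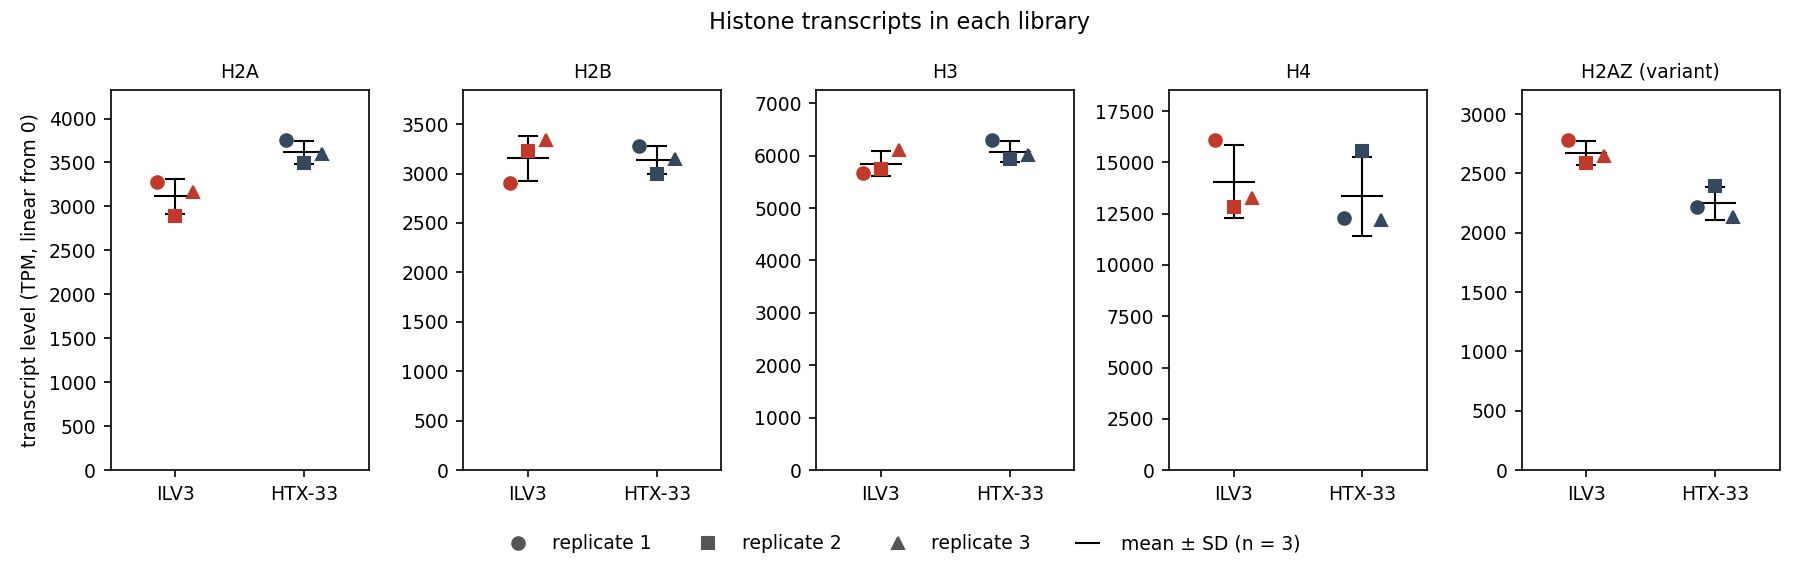
Transcript level of the 5 histone genes in TPM on linear axes from 0, with the ILV3 strain on the left and HTX-33 on the right of each panel. Points are libraries, and bars show mean ± SD (n = 3). The ILV3 points lie below the HTX-33 points for H2A and above them for H2AZ, and they overlap for H2B, H3 and H4.

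The proportions among the core histone transcripts were far from equal. The ratio of H3 to H4 was 0.352, 0.449 and 0.461 in the ILV3 libraries and 0.513, 0.381 and 0.493 in the HTX-33 libraries, and its lowest value in each strain came from the library with the high H4. The ratio of H2A to H2B was 1.13, 0.898 and 0.949 in the ILV3 libraries and 1.146, 1.17 and 1.14 in the HTX-33 libraries. ILV3 replicate 1 lay next to the HTX-33 values, so the gap between the strains in this ratio rests on the other ILV3 libraries. H2B and H2A carry consecutive locus tags, as do H3 and H4. The descriptions call each of these genes one of a pair of identical or nearly identical copies, while the table lists 1 gene for each. The sources used here do not say how reads of identical copies or of neighbouring genes on opposite strands were counted, so the absolute levels and the ratios between these genes are uncertain.

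Genes of DNA synthesis were set beside the histones. They were found by a search of the descriptions for terms such as ribonucleotide reductase, PCNA, DNA primase, GINS and origin recognition complex. Terms for MCM proteins, replication factor A and thymidylate synthase added no gene, so the list covers only a part of DNA synthesis. Of the 16 genes found, 2 were called higher and 3 lower, against 22.1% and 27.2% of all tested genes. The 5 called genes are named here after their values were seen. Both higher ones were subunits of the origin recognition complex, which marks where replication starts. PAS_chr3_0941 was at 8.07 ± 0.297 TPM in the ILV3 strain and 5.14 ± 0.254 TPM in HTX-33 (log2 fold change 0.56, adjusted p = 0.00171), the largest change of the list. PAS_chr2-1_0570 was at 17.1 ± 1.28 TPM in the ILV3 strain and 13.4 ± 1.25 TPM in HTX-33 (log2 fold change 0.33, adjusted p = 0.0154). The other listed subunits of this complex, PAS_chr1-3_0084 and PAS_chr4_0526, had log2 fold changes of 0.12 and -0.13 and did not pass (adjusted p = 0.159 and 0.131). The small subunit of ribonucleotide reductase (PAS_chr4_0197), which makes deoxynucleotides, was at 114 ± 2.04 TPM in the ILV3 strain and 149 ± 12.4 TPM in HTX-33 (SD, n = 3 each; log2 fold change -0.38, adjusted p = 0.000901). A large subunit of the same enzyme (PAS_chr1-1_0282) and a DNA primase subunit (PAS_chr4_0323) also fell, by log2 fold changes of -0.29 and -0.20 (adjusted p = 0.00645 and 0.0118). The other large subunit of the reductase (PAS_chr2-1_0209), with a mean of 6.28 TPM, did not pass (log2 fold change 0.03, adjusted p = 0.868). PCNA (PAS_chr3_0233), the sliding clamp of DNA polymerases, was at 138 ± 6.48 TPM in the ILV3 strain and 137 ± 8.23 TPM in HTX-33 (adjusted p = 0.881). The median log2 fold change of the 16 genes was 0.01, so the list as a whole did not move in 1 direction. In bulk cultures, the share of cells in S phase and the level of these transcripts within such cells cannot be told apart. A link between these genes and the histone values was not tested.

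The 75 other genes were less abundant than any histone gene, and their changes were small. Their means over the 6 libraries ran from 8.54 TPM for the catalytic subunit of the NuA3 acetyltransferase (PAS_chr2-2_0213) to 167 TPM for the SAGA-associated factor of 29 kDa (PAS_chr1-1_0454). Their median was 35.3 TPM, against 48.8 TPM for all tested genes. Of the 75 genes, 15 were called higher and 15 lower. With the histones included, 32 of 80 genes were called (40%), 16 in each direction, against the 49.3% of all tested genes. The median log2 fold change of the 80 genes was -0.02, as it was for all tested genes, and their log2 fold changes ran from -0.46 to 0.47. None of the 80 changed at least 2-fold by limma, against 3.1% of all tested genes that were called and changed at least 2-fold. An unadjusted limma p under 0.05 was found for 35 of the 80 genes, and for 2781 of all 5025 tested genes. For 38 of the 80 genes the ILV3 libraries all lay on one side of the HTX-33 libraries, 19 above and 19 below, against 57.2% of all tested genes (26.8% above and 30.5% below). The split of 16 higher and 16 lower became 21 and 13 with quantile normalization (26.25% and 16.25%). All tested genes shifted the same way in that setting, to 29.8% higher and 25.4% lower, from 22.1% and 27.2%.

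**Figure D2:**
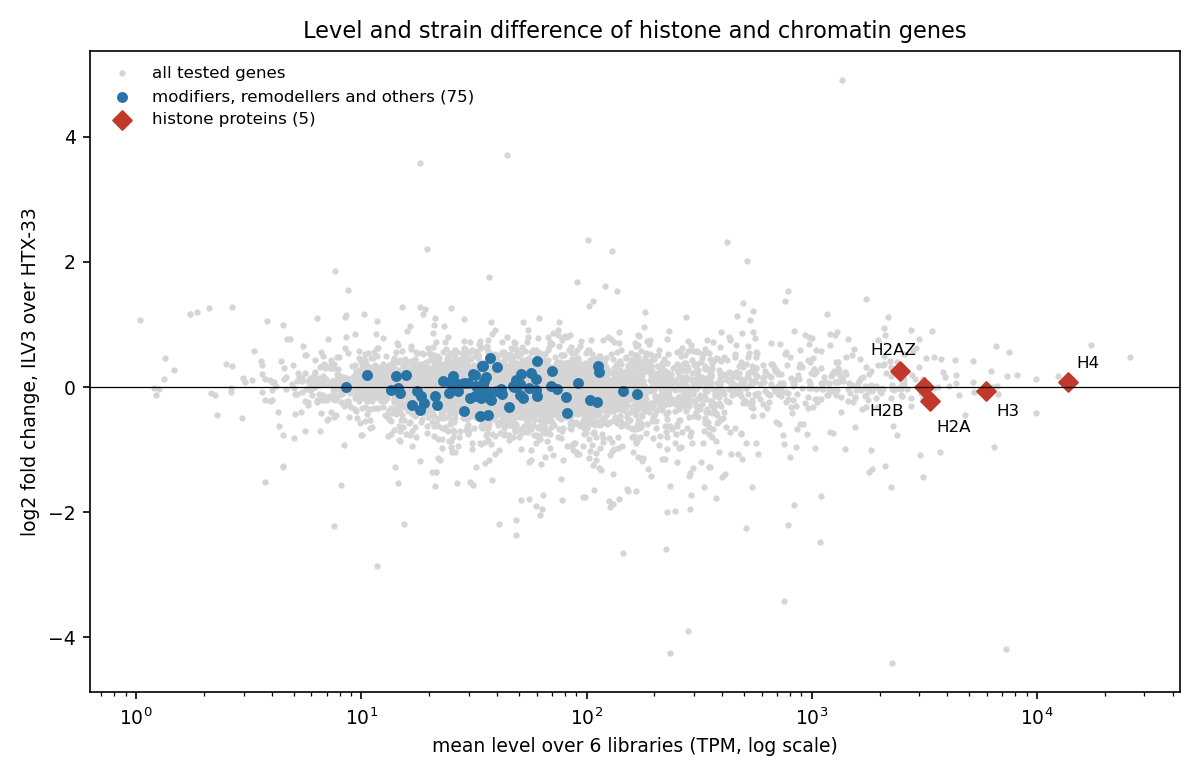
Log2 fold change of the ILV3 strain over HTX-33 against the mean level over the 6 libraries in TPM on a log axis, for all tested genes (grey), the 75 modifiers, remodellers and others (blue) and the 5 histone genes (red). The blue points lie between 8.54 and 167 TPM and the red points at 2459 TPM or more, all between -0.46 and 0.47 on the log2 scale.

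HTX-33 replicate 2 was the lowest of its strain for 61 of the 80 genes, and also for 66.4% of all tested genes. It was the lowest HTX-33 library for 14 of the 16 genes called lower and for 9 of the 16 called higher. The matching shares among all called genes were not counted. Without HTX-33 replicate 2, 13 genes were called higher and 24 lower (16.25% and 30%), in place of 16 and 16. All tested genes shifted the same way, to 21.1% higher and 32.4% lower, from 22.1% and 27.2%. In that setting 3 of the 32 calls were lost and 8 other genes were gained.

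Histone chaperones and assembly factors, which hand histones to DNA or take them off it, gave no call. None of the 5 was called by limma (0 had an unadjusted p under 0.05), against 49.3% of all tested genes, a difference that was not tested. The component of the chromatin assembly complex (PAS_chr3_0248), which deposits H3 and H4 behind the replication fork in yeast, was at 48.7, 46.6 and 47.1 TPM in the ILV3 libraries and at 48.7, 44.8 and 46.8 TPM in the HTX-33 libraries. Its log2 fold change was 0.02 with a 95% interval of -0.10 to 0.14. A subunit of the HIR complex (PAS_chr2-1_0799), a nucleosome assembly complex that in budding yeast also represses histone genes outside S phase, was at 34.8 ± 1.45 TPM in the ILV3 strain and 34.4 ± 1.19 TPM in HTX-33 (SD, n = 3 each; 95% interval of the log2 fold change -0.11 to 0.15). The log2 fold changes of the 5 genes lay between -0.10 and 0.06. A separate gene described as a chromatin protein with a role in histone gene expression (PAS_chr2-1_0401) was at 33.2, 35.5 and 32.1 TPM in the ILV3 libraries and at 30.2, 26.5 and 30.2 TPM in the HTX-33 libraries. It was called higher (log2 fold change 0.21, adjusted p = 0.037). The call was lost with the replicate number as a block (adjusted p = 0.0794) and without HTX-33 replicate 2, ILV3 replicate 1 or ILV3 replicate 2 (adjusted p between 0.0699 and 0.131).

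Subunits of the SAGA and NuA4 acetyltransferase complexes went both ways. Of 18 genes, 5 were called higher and 4 lower (50% called), close to the 49.3% of all tested genes, so the count does not set the complexes apart. SAGA acetylates H3 and takes part in recruiting the transcription machinery, and it shares several subunits with the general factor TFIID. Of the 5 genes described as subunits of both TFIID and SAGA, 2 rose and 2 fell. The 145 kDa subunit (PAS_chr1-4_0182) was at 71.2, 68.5 and 70.7 TPM in the ILV3 libraries and at 102.29, 88.2 and 91.5 TPM in the HTX-33 libraries. All ILV3 libraries lay below all HTX-33 libraries (log2 fold change -0.41, SE 0.06, adjusted p = 0.000464). The 61/68 kDa subunit (PAS_chr2-1_0588) fell with it, to 40.2 ± 3.08 TPM in the ILV3 strain, against 50.5 ± 4.51 TPM in HTX-33 (log2 fold change -0.32, adjusted p = 0.00927). In contrast, the 60 kDa subunit (PAS_chr1-1_0095) was at 76.5 ± 2.34 TPM in the ILV3 strain and 63.9 ± 3.41 TPM in HTX-33 (log2 fold change 0.26, adjusted p = 0.00385). The 17 kDa subunit (PAS_chr2-1_0142) rose as well, with 120.0, 127 and 123 TPM in the ILV3 libraries and 108, 101 and 103 TPM in the HTX-33 libraries (log2 fold change 0.25, adjusted p = 0.00216). The 90 kDa subunit (PAS_chr3_0453) did not pass (log2 fold change -0.13, adjusted p = 0.187). None of the 4 calls was lost in any of the 15 alternatives.

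Among genes described with SAGA alone, 1 of 4 was called (25%), against 49.3% of all tested genes. This subunit (PAS_chr1-4_0365), described as absent from the SAGA-like complex SLIK, was at 40.2, 38.2 and 37.9 TPM in the ILV3 libraries and at 29.7, 29.9 and 31.4 TPM in the HTX-33 libraries, a log2 fold change of 0.34 (SE 0.05, adjusted p = 0.00079). The SAGA-associated factor of 29 kDa (PAS_chr1-1_0454), the most abundant of the 75 genes, was at 160.3, 148 and 173.6 TPM in the ILV3 libraries and at 183, 171 and 163 TPM in the HTX-33 libraries, with overlapping strains (adjusted p = 0.227). The acetyltransferase of H2B and H3 (PAS_chr3_1128), the catalytic activity that works in SAGA in budding yeast, was at 36.9, 32.2 and 31.5 TPM in the ILV3 libraries and at 35.8, 35.4 and 39.9 TPM in the HTX-33 libraries (95% interval of the log2 fold change -0.31 to 0.03, adjusted p = 0.166). The other SAGA genes, PAS_chr3_0713 and PAS_chr1-4_0651, had log2 fold changes of 0.06 and -0.07 and did not pass.

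NuA4 acetylates H4 and H2A. Of its 8 genes 2 rose and 2 fell (50% called), close to the 49.3% of all tested genes. EAF6 (PAS_chr1-4_0084), a small subunit that budding yeast uses in NuA4 and in the H3 acetyltransferase NuA3, had, with the SWI/SNF catalytic subunit (PAS_FragD_0018), one of the largest falls of the 80 genes. It was at 29.1, 27.4 and 27.6 TPM in the ILV3 libraries and at 40.1, 40.4 and 36.5 TPM in the HTX-33 libraries (log2 fold change -0.46, SE 0.06, adjusted p = 0.00028). The non-essential component described as an Esa1p-associated factor (PAS_chr2-1_0356) was at 40.1, 37.9 and 37.2 TPM in the ILV3 libraries and at 28.9, 27.8 and 33.8 TPM in the HTX-33 libraries (log2 fold change 0.34, SE 0.08, adjusted p = 0.00562). Another component (PAS_chr4_0100) rose by a log2 fold change of 0.33 (adjusted p = 0.0123). These 3 calls held in all 15 alternatives. The fourth call, a lower value for a component of the complex (PAS_chr4_0298; log2 fold change -0.29, adjusted p = 0.0347), was lost when any library other than HTX-33 replicate 2 was left out (adjusted p between 0.0507 and 0.123). The catalytic subunit (PAS_chr4_0084) was at 40.8, 41.3 and 42.1 TPM in the ILV3 libraries and at 43.6, 41.6 and 41.2 TPM in the HTX-33 libraries. Its strains overlapped, and the 95% interval of its log2 fold change was -0.14 to 0.09. The other NuA4 genes, PAS_chr2-1_0321 and PAS_chr3_0998, had log2 fold changes of 0.01 and -0.01.

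The other acetyltransferases differed by small amounts, and most of their calls were lost in at least 1 alternative. Of 8 genes, 3 were called higher and 2 lower (62.5% called), against 49.3% of all tested genes. The enzyme that acetylates the N-terminal residues of H4 and H2A (PAS_chr2-1_0251) was at 15.7, 15.8 and 15.9 TPM in the ILV3 libraries and at 19.8, 19.3 and 22.6 TPM in the HTX-33 libraries. This was a log2 fold change of -0.36 (SE 0.08, adjusted p = 0.00417) and the only call among the 8 that held in all 15 alternatives. The catalytic subunit of SAS (PAS_chr3_0345), which in budding yeast acetylates H4 and limits the spread of silencing, was at 36.0, 33.2 and 33.2 TPM in the ILV3 libraries and at 30.0, 29.5 and 29.7 TPM in the HTX-33 libraries (log2 fold change 0.19, adjusted p = 0.0199). Its call was lost with the replicate block (adjusted p = 0.0626) and without HTX-33 replicate 1, HTX-33 replicate 3 or ILV3 replicate 1 (adjusted p between 0.0516 and 0.0902). The Hat1p-Hat2p complex acetylates newly made histones before they reach DNA. Its catalytic subunit (PAS_chr3_0228) was at 34.7, 34.5 and 34.6 TPM in the ILV3 libraries and at 41.5, 38.1 and 38.9 TPM in the HTX-33 libraries (log2 fold change -0.18, adjusted p = 0.0198). That call was also lost with the block (adjusted p = 0.0648) and without HTX-33 replicate 1 or any 1 ILV3 library (adjusted p between 0.0551 and 0.0897). The genes described as other subunits of this complex did not pass: PAS_chr2-1_0271 was at 64.7, 60.6 and 60.6 TPM in the ILV3 libraries and at 56.6, 57.1 and 56.9 TPM in the HTX-33 libraries (adjusted p = 0.0649). PAS_chr2-1_0205 was at 59.0 ± 2.15 TPM in the ILV3 strain and 60.8 ± 3.49 TPM in HTX-33 (adjusted p = 0.57). With median-ratio scaling and with quantile normalization PAS_chr2-1_0271 was called higher, and with quantile normalization the sign for PAS_chr2-1_0205 turned. Among NuA3 genes, which act on H3, PAS_FragD_0029 was called higher (log2 fold change 0.17, adjusted p = 0.0408, and 0.0846 with the replicate block). The catalytic subunit of NuA3 (PAS_chr2-2_0213), at 8.55 ± 0.630 TPM in the ILV3 strain and 8.52 ± 1.12 TPM in HTX-33, did not pass. An acetyltransferase needed for survival of DNA damage in S phase (PAS_chr3_0749) was called higher as well (log2 fold change 0.19, adjusted p = 0.0408, and 0.0854 with the block). The call for PAS_FragD_0029 was lost when any library other than HTX-33 replicate 1 was left out (adjusted p up to 0.143), and that for PAS_chr3_0749 when any 1 of the 6 was left out (adjusted p up to 0.156). The karyopherin that imports H2A and H2B (PAS_chr1-4_0595) had a log2 fold change of -0.14 and did not pass (adjusted p = 0.114).

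Among deacetylases, which remove acetyl groups from histone tails, 3 of 15 genes rose and 3 fell, which is 20% each way, against 22.1% higher and 27.2% lower among all tested genes. With all 6 libraries, the largest rise of the 80 genes was in the WD40 repeat subunit of the Set3C complex (PAS_chr1-4_0201). It was at 46.9, 43.1 and 40.4 TPM in the ILV3 libraries and at 29.0, 31.3 and 33.2 TPM in the HTX-33 libraries (log2 fold change 0.47, SE 0.07, adjusted p = 0.000749). The defining member of the same complex (PAS_chr1-3_0037) was at 35.0 ± 1.22 TPM in the ILV3 strain and 38.4 ± 3.08 TPM in HTX-33 and did not pass (adjusted p = 0.161). Another Set3C subunit (PAS_chr3_0600), which the description rule does not reach, did not pass either (log2 fold change -0.02, adjusted p = 0.866). A gene described only as a histone deacetylase (PAS_chr2-2_0016) was at 73.6, 64.3 and 68.2 TPM in the ILV3 libraries and at 54.1, 49.7 and 50.1 TPM in the HTX-33 libraries (log2 fold change 0.41, SE 0.06, adjusted p = 0.000603).

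The third riser belongs to the sirtuins, deacetylases that consume NAD+ and of which Sir2 keeps silent loci silent in budding yeast. This member of the Sir2 family (PAS_chr1-4_0315) was at 132, 118 and 127 TPM in the ILV3 libraries and at 94.8, 102.29 and 99.7 TPM in the HTX-33 libraries (log2 fold change 0.34, SE 0.05, adjusted p = 0.000764). The other sirtuins of the list did not pass: PAS_chr2-2_0049 was at 47.7 ± 3.22 TPM in the ILV3 strain and 47.8 ± 1.74 TPM in HTX-33, and PAS_chr1-1_0374 at 33.8 ± 1.66 TPM in the ILV3 strain and 34.0 ± 1.31 TPM in HTX-33. The 95% intervals of their log2 fold changes were -0.14 to 0.14 and -0.14 to 0.13. The Sir2 family genes PAS_chr2-1_0513 and PAS_chr4_0474, which the description rule does not reach, had log2 fold changes of -0.18 and 0.14 and did not pass either (adjusted p = 0.172 and 0.132).

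Of the genes that fell, the putative catalytic subunit of a class II deacetylase complex (PAS_chr2-1_0302) was at 25.9, 24.2 and 24.0 TPM in the ILV3 libraries and at 33.2, 30.1 and 33.7 TPM in the HTX-33 libraries (log2 fold change -0.37, SE 0.07, adjusted p = 0.00144). The other genes of class II complexes did not pass and pointed in different directions, with log2 fold changes of 0.19 for PAS_chr4_0599 and -0.12 for PAS_chr2-2_0426 (adjusted p = 0.127 and 0.105). These 3 risers and the class II gene kept their calls in all 15 alternatives. The other 2 falls were smaller. A gene described as a histone deacetylase (PAS_chr1-4_0125) had a log2 fold change of -0.16 (adjusted p = 0.0269), lost with the replicate block (0.0769), with quantile normalization (0.0856) and without HTX-33 replicate 3, ILV3 replicate 2 or ILV3 replicate 3 (0.0606 to 0.101). A putative component of the Rpd3 complex (PAS_chr4_0679), which represses many yeast promoters, had a log2 fold change of -0.18 (adjusted p = 0.0118), lost with the block (0.0513), with quantile normalization (0.0965) and without ILV3 replicate 1 (0.0520). The most abundant deacetylase gene, a complex subunit (PAS_chr3_0250), was at 149, 148 and 131 TPM in the ILV3 libraries and at 146, 150.4 and 150.2 TPM in the HTX-33 libraries, and did not pass (adjusted p = 0.409). The other Rpd3 genes (PAS_chr4_0136, PAS_chr3_0245 and PAS_chr3_0174) had log2 fold changes of 0.10, 0.01 and -0.14 and did not pass.

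**Figure D3:**
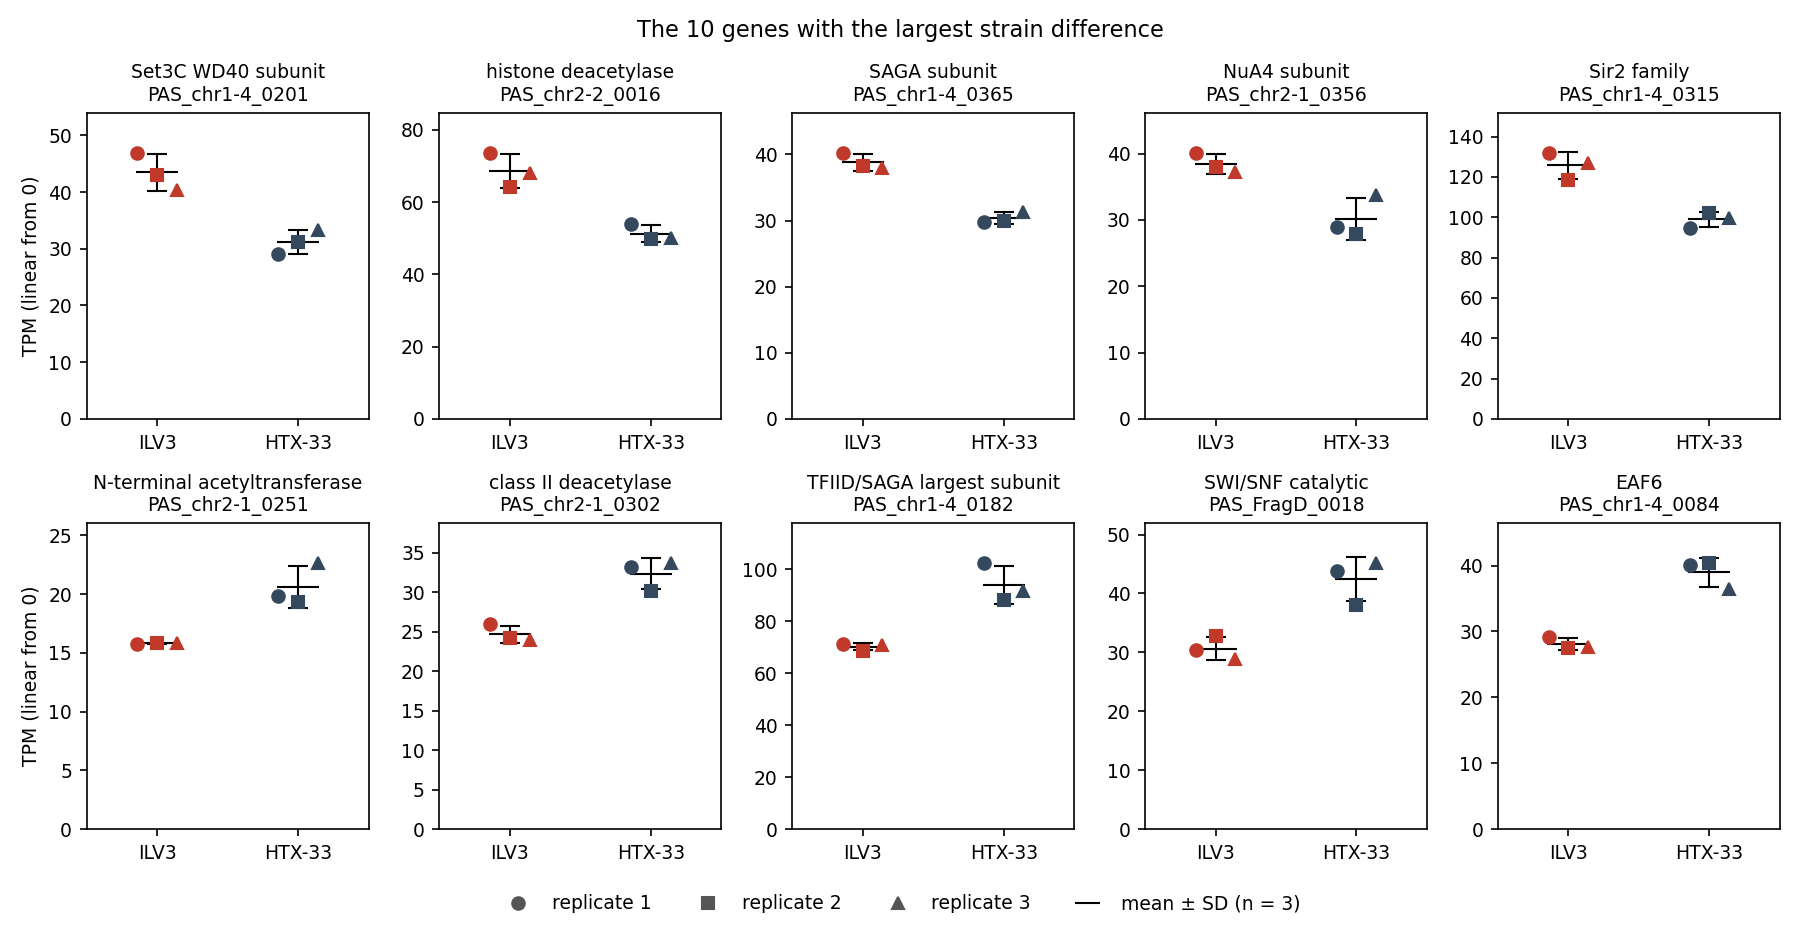
Transcript level in TPM, on linear axes from 0, of the 10 genes with the largest absolute log2 fold change, ordered from the highest change at upper left to the lowest at lower right. The ILV3 strain is on the left and HTX-33 on the right of each panel, points are libraries, and bars show mean ± SD (n = 3). In each panel the 3 points of one strain lie apart from the 3 points of the other.

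Of the 9 histone methylation genes, 1 was called higher and 1 lower, against 22.1% higher and 27.2% lower among all tested genes, and the difference between these shares was not tested. The 4 COMPASS genes, whose complex methylates lysine 4 of H3 at active promoters, all had positive log2 fold changes of 0.06 to 0.18, but none was called by limma (0 had an unadjusted p under 0.05). The most abundant of them (PAS_chr2-1_0206) was at 49.8, 50.1 and 52.2 TPM in the ILV3 libraries and at 50.1, 45.2 and 45.5 TPM in the HTX-33 libraries (adjusted p = 0.143, and 0.0191 with quantile normalization, within a range of 0.0191 to 0.333). Of the 3 JmjC demethylases, enzymes that take methyl groups off lysines, 1 fell, 1 rose and 1 did not pass. The gene described without a target lysine (PAS_chr2-2_0166) was at 98.0, 94.8 and 94.2 TPM in the ILV3 libraries and at 109.6, 107 and 115 TPM in the HTX-33 libraries (log2 fold change -0.21, SE 0.05, adjusted p = 0.00536), which held in all 15 alternatives. A demethylase of lysine 36 of H3 (PAS_chr1-1_0295) was at 17.6, 16.4 and 16.8 TPM in the ILV3 libraries and at 14.5, 14.8 and 14.7 TPM in the HTX-33 libraries (log2 fold change 0.20, adjusted p = 0.039). That call was lost with the replicate block (adjusted p = 0.123) and when any library other than HTX-33 replicate 2 was left out (adjusted p between 0.0706 and 0.141). A second gene described for lysine 36 (PAS_chr2-1_0062) was at 36.1 ± 1.16 TPM in the ILV3 strain and 38.6 ± 2.75 TPM in HTX-33 (adjusted p = 0.281). The genes described as histone methyltransferases, PAS_chr1-1_0102 and PAS_chr1-4_0287, were at 13.3 ± 1.22 and 14.3 ± 0.730 TPM in the ILV3 strain and at 13.7 ± 0.617 and 15.4 ± 1.99 TPM in HTX-33, and neither passed.

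Among the 16 remodeller genes, 2 rose and 4 fell (12.5% and 25%), against 22.1% higher and 27.2% lower among all tested genes. Both SWI/SNF genes fell. The catalytic subunit (PAS_FragD_0018), the ATPase that moves nucleosomes at inducible promoters, was at 30.3, 32.7 and 28.9 TPM in the ILV3 libraries and at 43.9, 38.1 and 45.1 TPM in the HTX-33 libraries. The fall, a log2 fold change of -0.45 (SE 0.08, adjusted p = 0.00119), held in all 15 alternatives. It was of about the size of the fall of EAF6 (PAS_chr1-4_0084), and it was the larger one without HTX-33 replicate 2 (-0.53, against -0.43 for EAF6) and without ILV3 replicate 2 (-0.50, against -0.44). Another SWI/SNF subunit (PAS_chr1-4_0309) was at 34.5, 35.1 and 34.8 TPM in the ILV3 libraries and at 40.8, 38.0 and 42.6 TPM in the HTX-33 libraries (log2 fold change -0.21, adjusted p = 0.0145, and 0.0621 without HTX-33 replicate 3).

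RSC is the abundant, essential relative of SWI/SNF in budding yeast. Of its 7 genes, 2 were called higher and 1 lower (42.9% called), against 49.3% of all tested genes. The most abundant, described as RSC7 (PAS_chr1-4_0650), was at 106, 106 and 95.8 TPM in the ILV3 libraries and at 129, 112 and 121 TPM in the HTX-33 libraries (log2 fold change -0.23, adjusted p = 0.0164). This call was lost with quantile normalization (adjusted p = 0.0564) and without HTX-33 replicate 1 or ILV3 replicate 3 (0.0602 and 0.0608). A component (PAS_chr3_0068) was at 61.8, 63.9 and 57.6 TPM in the ILV3 libraries and at 53.4, 49.2 and 53.2 TPM in the HTX-33 libraries (log2 fold change 0.23, adjusted p = 0.0102), which passed in all 15 alternatives. Another (PAS_chr2-1_0375) rose by a log2 fold change of 0.20 (adjusted p = 0.0133, and 0.0503 without ILV3 replicate 2). The ATPase of RSC (PAS_chr2-2_0128) was at 56.7, 55.3 and 54.6 TPM in the ILV3 libraries and at 57.6, 51.8 and 58.4 TPM in the HTX-33 libraries, with a 95% interval of -0.14 to 0.12 for its log2 fold change. The component PAS_chr3_0544 was at 93.3 ± 2.43 TPM in the ILV3 strain and 89.0 ± 0.969 TPM in HTX-33, and its adjusted p of 0.239 became 0.0161 with quantile normalization (range 0.0161 to 0.447). The remaining components PAS_chr2-1_0193 and PAS_chr2-2_0050 had log2 fold changes of 0.08 and -0.18 and did not pass.

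Of the genes described as ISWI-class remodellers, which space nucleosomes, PAS_chr4_0128 was at 14.8, 15.3 and 14.7 TPM in the ILV3 libraries and at 18.8, 16.2 and 20.4 TPM in the HTX-33 libraries. This fall (log2 fold change -0.29, adjusted p = 0.0259) was lost when any library other than HTX-33 replicate 2 was left out (adjusted p between 0.0504 and 0.0964). The other ISWI gene (PAS_chr2-2_0383) was at 27.4 ± 1.93 TPM in the ILV3 strain and 26.5 ± 1.02 TPM in HTX-33 and did not pass (adjusted p = 0.612). For the exchange of H2A for H2AZ, the component of the SWR1 complex (PAS_chr2-1_0370) was at 33.1, 31.2 and 31.6 TPM in the ILV3 libraries and at 37.5, 33.3 and 37.6 TPM in the HTX-33 libraries. Its values did not overlap between strains, but it did not pass the test (log2 fold change -0.17, adjusted p = 0.0566). The subunit shared by NuA4 and SWR1 (PAS_chr4_0376) was at 51.2 ± 2.31 TPM in the ILV3 strain and 49.7 ± 1.22 TPM in HTX-33 (adjusted p = 0.548). The ATPase of SWR1 (PAS_chr4_0143), which the description rule does not reach, was at 21.3 ± 0.442 TPM in the ILV3 strain and 20.9 ± 1.87 TPM in HTX-33 (adjusted p = 0.752). The other remodeller genes did not pass: the nuclear actin-related proteins PAS_chr3_0047 and PAS_chr2-2_0068 had log2 fold changes of -0.03 and -0.14, a nucleosome remodelling factor (PAS_chr2-1_0095) -0.07, and a subunit shared by ISW2 and DNA polymerase epsilon (PAS_chr2-1_0100) -0.12.

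The single gene described by silencing at the telomere (PAS_chr4_0833) was at 17.9, 17.4 and 16.8 TPM in the ILV3 libraries and at 19.3, 17.4 and 21.5 TPM in the HTX-33 libraries and did not pass (adjusted p = 0.193, and 0.0368 without HTX-33 replicate 2). A gene described only as a chromatin-associated protein (PAS_chr3_0205) was at 16.9, 17.8 and 16.9 TPM in the ILV3 libraries and at 21.9, 18.4 and 22.0 TPM in the HTX-33 libraries. It was called lower (log2 fold change -0.25, adjusted p = 0.0299), and the call was lost with the replicate block (0.0602) and when any library other than HTX-33 replicate 2 was left out (0.0510 to 0.107).

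**Figure D4:**
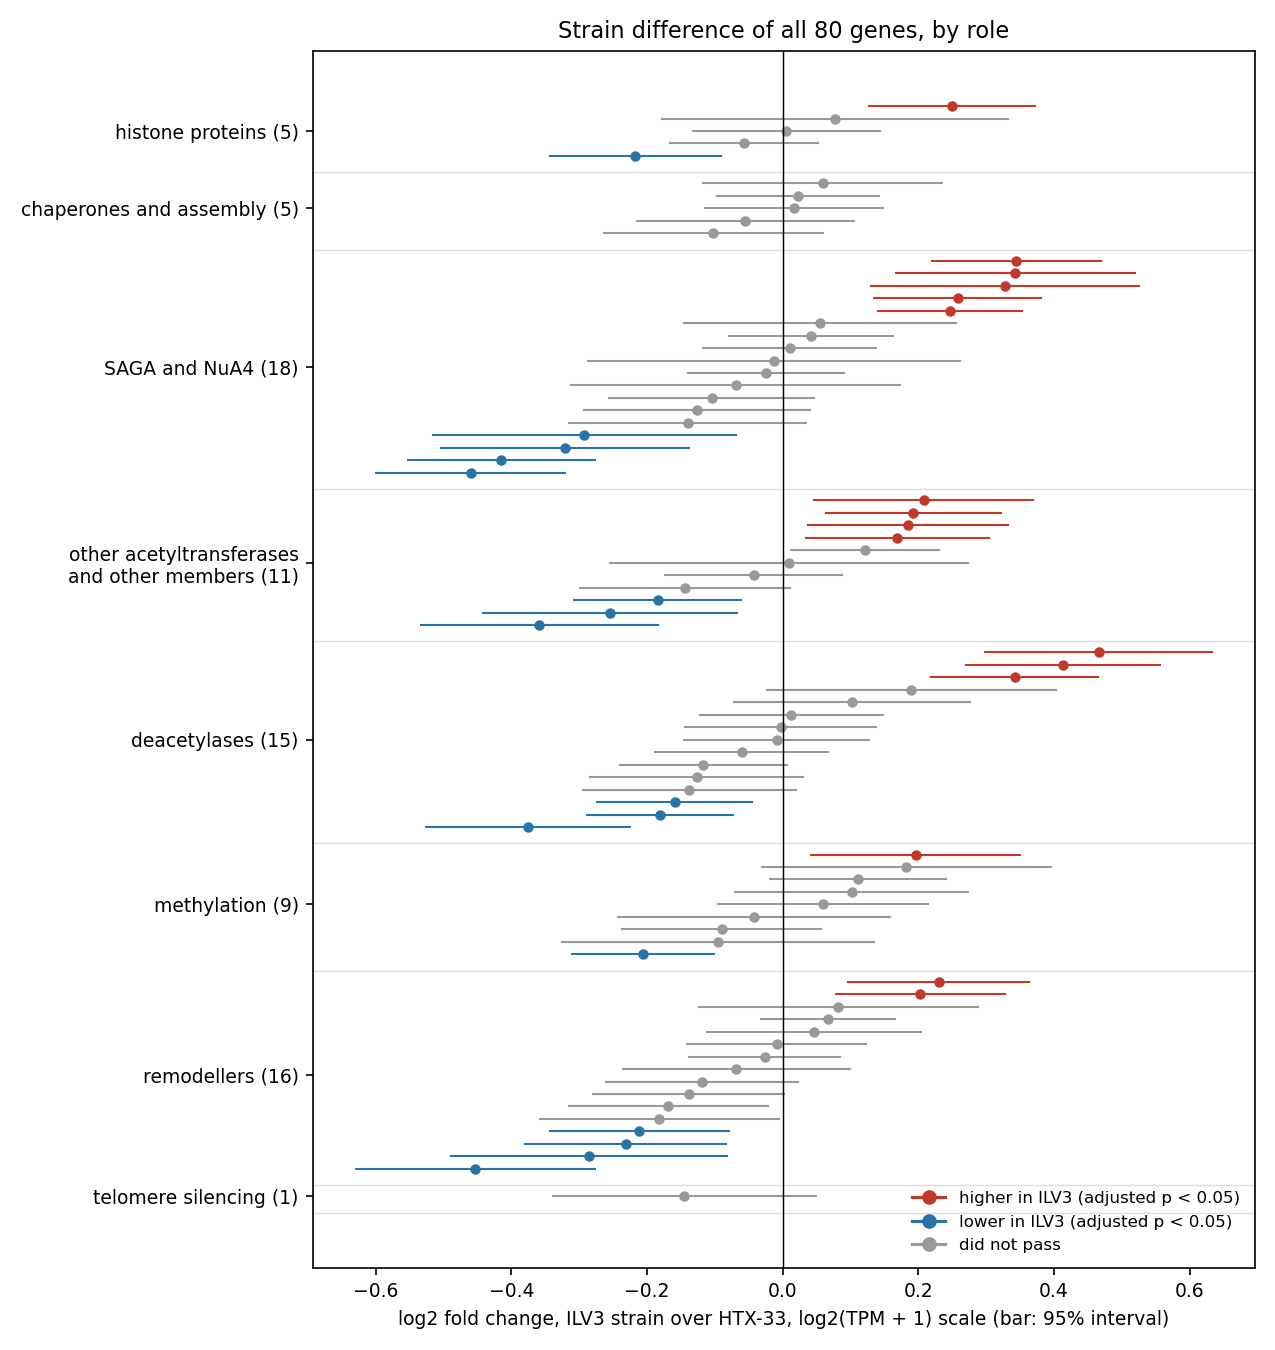
Log2 fold change of the ILV3 strain over HTX-33 for all 80 genes, grouped by role, on the log2(TPM + 1) scale. Points are fitted changes with 95% intervals, red where a gene was called higher, blue where it was called lower and grey where it did not pass. Called genes of both directions appear among histones, SAGA and NuA4, other acetyltransferases, deacetylases, methylation genes and remodellers, and no chaperone was called.

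Genes that the description rule leaves out were counted separately by a search of the descriptions for terms such as INO80, SWR1, FACT, Sin3, cohesin, condensin and deacetylase. Of the 15 genes found, 1 was called higher and 3 lower, against 22.1% and 27.2% of all tested genes, with a median log2 fold change of -0.11. The higher one was a chitin deacetylase (PAS_chr1-1_0103), an enzyme of the spore wall and no chromatin gene, at 109 ± 3.89 TPM in the ILV3 strain and 90.4 ± 3.94 TPM in HTX-33 (log2 fold change 0.27, adjusted p = 0.00202). Without it, 0 of 14 genes were called higher and 3 lower by limma (4 had an unadjusted p under 0.05), with a median of -0.12. A protein found to interact with Sin3p (PAS_chr4_0277), the scaffold of the Rpd3 deacetylase, fell to 26.9 ± 1.03 TPM in the ILV3 strain, against 36.1 ± 1.66 TPM in HTX-33 (log2 fold change -0.41, adjusted p = 0.000496). Another Sin3p-binding protein (PAS_chr1-4_0296) fell to 105 ± 2.65 TPM in the ILV3 strain, against 121 ± 4.19 TPM in HTX-33 (log2 fold change -0.19, adjusted p = 0.00704). A subunit of FACT (PAS_chr1-4_0529), the complex that opens nucleosomes for RNA polymerase, fell to 57.4 ± 2.17 TPM in the ILV3 strain, against 70.0 ± 4.88 TPM in HTX-33 (log2 fold change -0.28, adjusted p = 0.00495). The other FACT subunit (PAS_chr1-1_0018) was at 87.7 ± 4.18 TPM in the ILV3 strain and 96.7 ± 3.91 TPM in HTX-33 (adjusted p = 0.0555).

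In the authors' deposited table, the sign of the log2 fold change was the same as in the limma fit for 75 of the 80 genes and for all 32 called ones, and 38 of the 80 had a deposited p-value under 0.05. H3 was among those with the other sign, at 0.03 in the deposited table and -0.06 by limma. The deposited values of H4 and H2B were 0.21 and 0.10, against 0.08 and 0.01 by limma. Each histone gene had a higher log2 fold change in the deposited table than by limma. The deposited p-values of H3, H4 and H2B were 0.678, 0.275 and 0.152.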

How the data were processed

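Expression was read from the authors' deposited table, whose 6 library columns equal the 6 single-library tables. The values are named FPKM per the file headers, but each library sums to 1000000, so they were treated as deposited TPM; whether they were scaled by length cannot be tested here. HISAT2, TopHat2 and DESeq2 are named in the submitters' processing notes, with no role or version; the sources used here give neither genome build nor annotation. Libraries were stranded mRNA libraries, per the labels' protocols. Depth per library is unknown. In the same table the authors deposited, for each gene, a log2 fold change and a p-value that is not stated to be adjusted. Between 10 and 20 genes per library are listed at 0 TPM, none of them among the 80.

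After removal of 5 genes whose mean lay below 1 TPM, log2(TPM + 1) values of 5025 genes entered a two-sided limma-trend test (limma 3.58.1, R 4.3.3) with Benjamini-Hochberg adjustment over all of them. No set test was run. Roles were assigned by hand from the descriptions; EAF6 and the H2B and H3 acetyltransferase were placed with NuA4 and SAGA from their roles in budding yeast. Of the gene IDs, 0 were found in the RefSeq gene table at hand. Genes named in full were all histone genes, the 4 called genes with the largest change and the 2 most abundant genes of each role, and the 10 largest changes; this names 33 genes, and others are given beside them. The members and lists were chosen with earlier results of these data known.

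Deviations of same-numbered libraries from their strain means correlated across genes with r of 0.223, 0.126 and 0.209, each above a chosen limit of 0.1. Libraries of the same number may therefore be paired, and the replicate block was used as an alternative setting. Unless a setting is named, calls, counts and shares come from limma without this block. The deviations are taken within strains of 3 libraries, so the r values are not independent of each other. The labels do not say what a number shares, and genes are not independent replicates. Results of the blocked fit stand beside calls that it changed.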

Additional observations from a re-analysis of the deposited data

How the results depend on the processing

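Settings varied one at a time were the pseudocount (0.1 or 5), the low-value filter (none, or 10 TPM), the scaling (median-ratio or quantile), the variance model (without trend, or robust), the replicate block, and the omission of each library. Of the 32 calls, 18 held in all 15 of these, 10 higher and 8 lower, and 14 were lost in at least 1. Losses were not counted over all called genes, so they cannot be read as particular to the 80 genes. No call among the 80 genes turned its direction. The changed pseudocounts, filters and variance models neither removed nor added a call among the 80 genes. Calls were lost only with quantile normalization, the replicate block or a library left out. The filter at 10 TPM left 79 of the 80 genes. With the replicate block 23 of the 80 genes were called (28.75%), 11 higher and 12 lower. Over all tested genes the block gave 44.0% called, 19.6% higher and 24.4% lower. Of the 32 calls, 9 were lost with it, each given beside its gene. The block changed the call of no other gene among the 80. Leaving out 1 library gave 22 to 37 called genes, 11 to 13 higher and 10 to 24 lower, with 10 lower without ILV3 replicate 3; over all genes it gave 2120 to 2689. H2A and H2AZ were called under every setting. Quantile normalization and median-ratio scaling gave 34 and 37 called genes (42.5% and 46.25%), against 55.2% and 53.4% of all tested genes. The medians over all genes were then 0.02 and 0.004 on the log2 scale. Among named genes that did not pass, the sign of the log2 fold change turned with quantile normalization for H4 (PAS_chr2-2_0200, -0.0849), PAS_chr2-1_0205 (0.0277) and PAS_chr3_0250 (0.0331). With 1 library left out it also turned in at least 1 case for H2B (PAS_chr2-1_0428, -0.0367 to 0.0648), H4 (-0.0237 to 0.193), PAS_chr2-1_0799 (-0.00624 to 0.0501) and PAS_chr3_0248 (-0.00753 to 0.0511).

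The alternatives for the 4 core histones together and for members with no other role were chosen after the data were seen. The difference of the summed core histones was -7.78 TPM, 400 TPM with median-ratio scaling, and -891 to 894 TPM with a library left out. Without the 8 genes that also have a role outside chromatin, 27 of 72 genes were called (37.5%), against 49.3% of all tested genes. Depth is unknown, so small differences of weakly expressed genes were judged from the spread between libraries alone.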
